A study of Mus musculus with 24 samples.

Results

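Cytosolic ribosomal protein genes were examined in maps of MYT1L binding from mouse cortex. Members were the mm10 protein-coding genes whose symbol is Rpl or Rps followed by a number and at most 1 of the letters a, x or y, together with Rpsa, Rplp0, Rplp1 and Rplp2. This gave 76 of 21938 protein-coding genes, of which 30 encode proteins of the small (40S) subunit, 43 of the large (60S) subunit and 3 of the acidic stalk. MYT1L is a neuronal transcription factor with zinc finger domains. In CUT&RUN, the assay used here, an antibody against the protein brings a nuclease to its binding places on chromatin, and the DNA cut free there is sequenced. The groups were wild-type (WT) cortex of the late embryo (E18.5), WT prefrontal cortex at birth (P0), and prefrontal cortex of adults at 3 months that were either heterozygous for a Myt1l mutation (HET) or WT. These tissues are those of the labels, and the methods differ in naming prefrontal cortex for the embryos too. The labels give the strain as C57BL/6J for all samples, while the methods describe the mutant line on C57BL/6N. The HET mice carry a frameshift deletion in exon 6 of Myt1l on 1 allele. The 24 samples held 3 MYT1L and 3 control IgG libraries for each group.

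The authors deposited 1 list of sites for each group, merged over its 3 MYT1L libraries, with a start and an end for every site and no height, score or p-value. The lists held 14477 sites for E18.5 with a median width of 593 bp, 40698 for P0 (276 bp), 56937 for adult HET (108 bp) and 32145 for adult WT (167 bp). The depth behind each list is unknown, and no value below has a replicate error or a test. The IgG libraries are not analysed here. E18.5 and P0 were sequenced in run 1 and both adult groups in run 2, so adult age and run cannot be told apart. The lists hold positions only, so the tissue label could not be checked against marker genes and the level of Myt1l could not be checked in HET.

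Ribosomal proteins form, with ribosomal RNA, the subunits that translate mRNA. Their genes are expressed in every cell, mostly start within CpG islands, and give mRNAs that begin with a C followed by a run of pyrimidines, the terminal oligopyrimidine or TOP motif, through which mTOR signalling controls their translation. Growing neurons need many ribosomes, and some ribosomal protein mRNAs are carried into axons and dendrites.

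A member was counted as a target where a site lay within 1 kb of the transcription start of any of its annotated protein-coding transcripts. In the E18.5 list 60 of 76 members were targets (78.9%), against 5951 of all 21938 protein-coding genes (27.1%). In the P0 list 67 members were targets (88.2%), against 40.6% of all protein-coding genes. In the adult HET list 14 members were targets (18.4%), against 9.83% of all protein-coding genes. In the adult WT list 22 members were targets (28.9%), against 12.4% of all protein-coding genes. In each list the members' share was thus above that of the genome, and it was lower in both adult lists than in the younger ones. In all, 74 members had a site in at least 1 list (97.4%, against 47.4% of all protein-coding genes) and 59 in 2 or more (77.6%, against 29.3%).

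**Figure D1:**
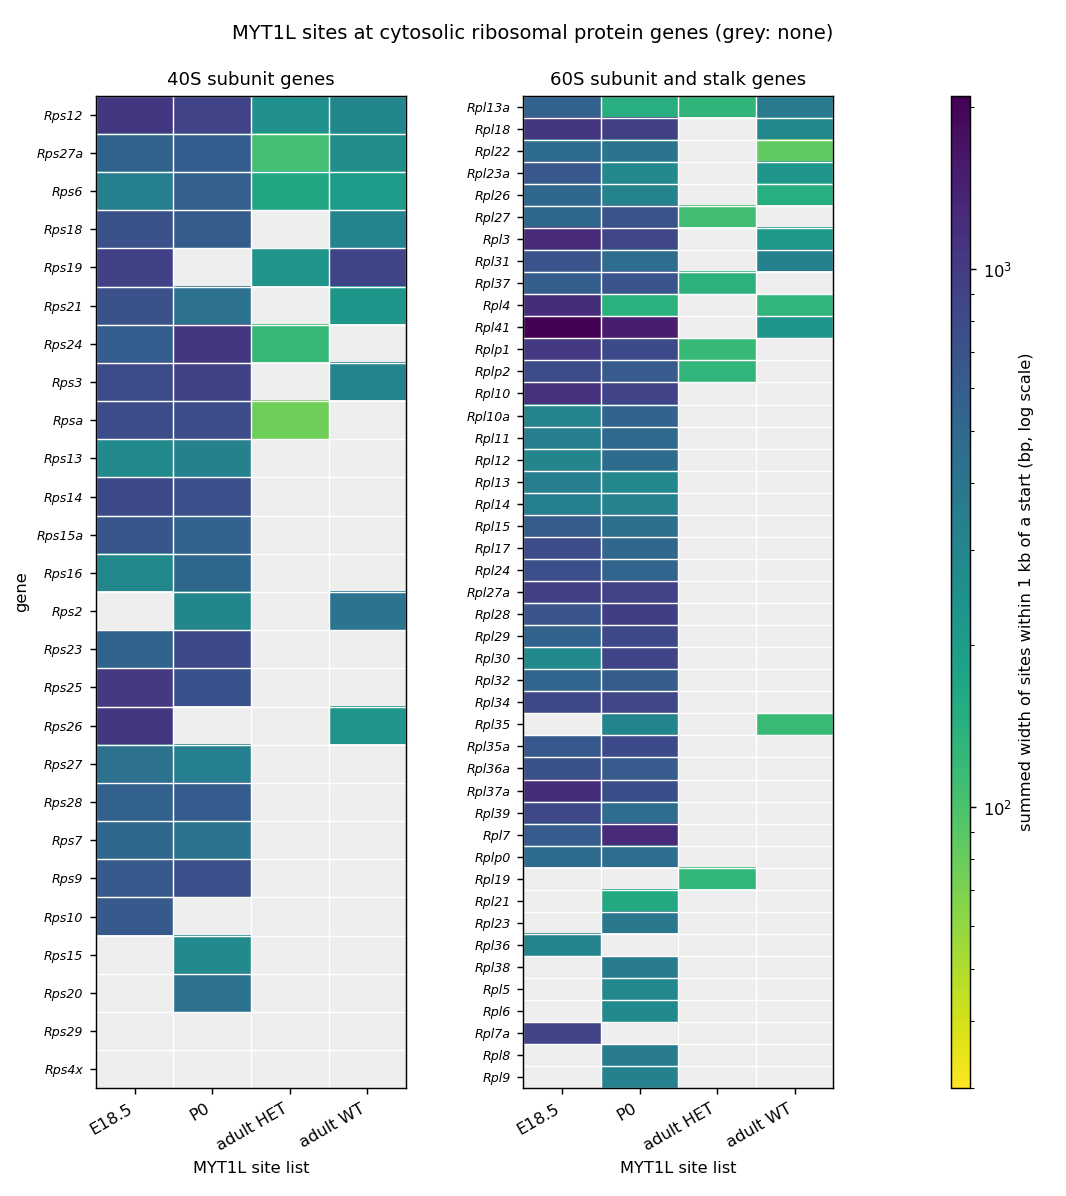
Summed width of the MYT1L sites within 1 kb of a start (bp, colour, log scale) for 71 of the 76 members (rows) in each of the 4 lists (columns), with 40S genes on the left and 60S and stalk genes on the right, ordered by the number of lists with a site. Grey cells have no site. Both left-hand columns are filled for most genes, with 57 members for E18.5 and 63 for P0, while 12 cells are filled for adult HET and 19 for adult WT.

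Sites in all 4 lists were found at 5 members (6.58%), against 2.44% of all protein-coding genes. Among genes with sites at both E18.5 and P0 the proportions were near each other, with 5 of 55 members and 535 of 5456 genes. The 5 members included Rps6, the 40S protein phosphorylated by S6 kinase, and Rps12, a further 40S protein. They also included Rps27a, which is made as a fusion with ubiquitin, and Rpl13a, a 60S protein. At Rps6 and Rps12 the 4 lists shared bases, and at Rps27a and Rpl13a no base was common to all 4. The promoters of Rps12, Rps6 and Rpl13a are shown because these members have sites in all 4 lists and an entry in the RefSeq promoter table used here. Each sequence runs from 250 bases before to 50 bases after the RefSeq start on GRCm38.p6, the assembly of mm10, and all lie on the minus strand: Rps12 at chr10:23787160-23787459, Rps6 at chr4:86857318-86857617 and Rpl13a at chr7:45128696-45128995. Capitals mark the bases inside sites of all 4 lists, which were 225 bases for Rps12 and 107 for Rps6. For Rpl13a, which had no such base, capitals mark the 221 bases inside the sites of both the E18.5 and adult WT lists.
Rps12: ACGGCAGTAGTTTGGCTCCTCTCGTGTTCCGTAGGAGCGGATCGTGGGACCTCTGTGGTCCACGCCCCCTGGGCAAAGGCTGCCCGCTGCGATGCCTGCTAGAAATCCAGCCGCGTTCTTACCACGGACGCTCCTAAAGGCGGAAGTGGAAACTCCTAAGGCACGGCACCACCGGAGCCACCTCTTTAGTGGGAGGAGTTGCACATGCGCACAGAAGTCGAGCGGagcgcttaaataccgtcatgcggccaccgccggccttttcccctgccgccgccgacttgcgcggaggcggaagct
Rps6: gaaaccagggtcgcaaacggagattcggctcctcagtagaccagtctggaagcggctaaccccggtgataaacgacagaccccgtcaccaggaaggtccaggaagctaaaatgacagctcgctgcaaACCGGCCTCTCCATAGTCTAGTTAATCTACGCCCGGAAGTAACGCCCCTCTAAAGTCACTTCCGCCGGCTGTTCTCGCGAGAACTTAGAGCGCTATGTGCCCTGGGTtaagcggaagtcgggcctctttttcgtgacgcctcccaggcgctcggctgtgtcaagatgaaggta
Rpl13a: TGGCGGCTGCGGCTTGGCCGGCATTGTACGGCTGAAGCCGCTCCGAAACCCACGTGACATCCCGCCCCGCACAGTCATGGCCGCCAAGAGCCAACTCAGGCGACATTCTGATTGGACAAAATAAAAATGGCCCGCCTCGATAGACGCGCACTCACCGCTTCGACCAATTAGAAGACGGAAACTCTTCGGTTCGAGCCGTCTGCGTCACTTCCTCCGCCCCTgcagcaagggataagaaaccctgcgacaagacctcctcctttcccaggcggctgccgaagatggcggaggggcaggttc

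The Rps12 sites were wide at both younger stages. Its E18.5 site was 1060 bp wide with the midpoint 322.5 bp upstream of the nearest annotated start, and its P0 site was 896 bp wide and 179.5 bp upstream. The adult HET site was 246 bp wide (chr10:23787235-23787480) and the adult WT site 301 bp (chr10:23787217-23787517), with midpoints 82.5 and 92 bp upstream. All 246 bases of the HET site thus lay in the sites of the other 3 lists. The 6 letters CGGAAG, the core of ETS family sites, stood in the capitals of the Rps12 promoter 110 bases upstream of the RefSeq start.

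Rps6 had sites of similar position in all 4 lists. They were 336 bp wide at E18.5, 572 bp at P0, 165 bp in adult HET and 203 bp in adult WT, and each covered the reference start of the GENCODE annotation, while the HET site did not reach the RefSeq start. In the Rps6 promoter CGGAAG or its reverse complement began 90, 65 and 12 bases upstream of the RefSeq start, and the first and second of these lay in the capitals.

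At Rps27a the E18.5 site (547 bp), the P0 site (591 bp) and the adult WT site (256 bp) covered an annotated start. Its adult HET site, 106 bp wide, lay apart from these with its nearest edge 155 bp from a start. All Rps27a sites also lay within 1 kb of a start of Clhc1, so they cannot be given to 1 of these genes. Rpl13a had an E18.5 site of 548 bp over the start, an adult HET site of 131 bp and an adult WT site of 372 bp. Its only P0 site, 146 bp wide, lay 803 bp away from the nearest start, the largest gap of any P0 target among the members. Rps19, a 40S protein whose human gene is mutated in Diamond-Blackfan anaemia, had sites in every list but P0. Its adult WT sites summed to 861 bp, the widest of any member in that list, and its adult HET site was 228 bp wide.

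**Figure D2:**
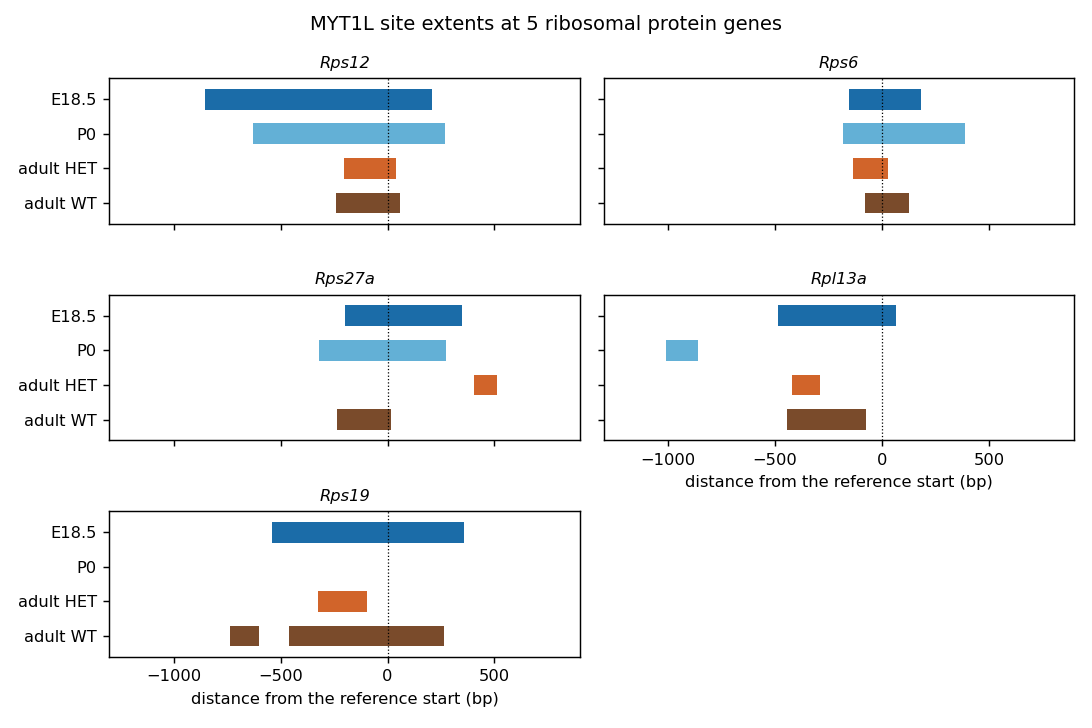
Extent of each MYT1L site (bars, bp from the reference start, which is the start used by most transcripts of the gene) in the 4 lists at 4 members with sites in all lists and at Rps19, with negative distances upstream. The bars of Rps12 and Rps6 stack over shared bases, the adult HET bar of Rps27a lies to the right of the others, the P0 bar of Rpl13a lies to the left, and Rps19 has no P0 bar.

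The most frequent pattern was a site in both the E18.5 and P0 lists and in neither adult list, seen at 31 members (40.8%) and at 14.8% of all protein-coding genes. It included Rpl11, which with Rpl5 and 5S rRNA binds MDM2, Rplp0, the stalk protein that anchors Rplp1 and Rplp2, and Rps14. A further 13 members (17.1%, against 5.07% of all protein-coding genes) had sites at E18.5, P0 and in adult WT but not in adult HET, among them Rpl3 and Rpl4, core proteins of the large subunit, and Rps3, which lies at the mRNA entry of the small subunit. Another 6 (7.89%, against 2.58%) had sites at E18.5, P0 and in adult HET but not in adult WT. These were Rpl27, Rpl37, Rplp1, Rplp2, Rps24 and Rpsa, the last also known as a precursor of the laminin receptor. Of the 55 members with sites at both E18.5 and P0, these patterns held 31, 13 and 6. Of the 5456 protein-coding genes with both, they held 3241, 1113 and 567. Within that class the members were near genes in general, so the higher shares above largely restate their more frequent sites at E18.5 and P0. Sites in P0 only were found at 10 members, among them Rpl5, Rpl6, Rpl8, Rpl9, Rpl21, Rpl23, Rpl38, Rps15 and Rps20, a share of 13.2% that was near the 13% of all protein-coding genes. Sites in E18.5 only were found at 3 (Rpl7a, Rpl36 and Rps10, 3.95% against 0.975%). Rps2 and Rpl35 had sites in P0 and adult WT, and Rps26 in E18.5 and adult WT.

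Rps29 and Rps4x, both of the 40S subunit, had no site within 1 kb of a start in any list. The Rps4x promoter (chrX:102189342-102189641, minus strand) is shown for contrast and was chosen after its values were seen. It is in lower case throughout, since none of its bases lay in a site.
Rps4x: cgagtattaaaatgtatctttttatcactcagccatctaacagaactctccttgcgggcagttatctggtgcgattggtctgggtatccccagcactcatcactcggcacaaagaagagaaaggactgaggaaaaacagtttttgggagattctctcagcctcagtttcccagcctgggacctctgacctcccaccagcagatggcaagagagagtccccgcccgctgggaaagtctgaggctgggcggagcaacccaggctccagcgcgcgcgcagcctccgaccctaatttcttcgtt

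The other X-linked members, Rpl10, Rpl36a and Rpl39, had sites in both the E18.5 and P0 lists. No member had a site in adult WT alone, a pattern seen at only 1.73% of all protein-coding genes. Rpl19, a 60S protein, was 1 of 2 members with a site in adult HET alone. That share of 2.63% was near the 2.42% of all protein-coding genes. The Rpl19 site was 127 bp wide and lay 831 bp from the nearest start, the widest gap of any adult HET target.

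Adult HET and adult WT shared few members. Both lists held 6 members, among them Rpl13a, Rps6, Rps12, Rps19 and Rps27a, which were 42.9% of the 14 HET targets and 27.3% of the 22 WT targets. Over all protein-coding genes these shares were 36.1% and 28.7%. The HET list alone held 8 members and the WT list alone held 16. Of the 6 shared members, 5 had HET and WT sites that overlapped (83.3%, against 67.2% of all protein-coding genes with both), and the HET site was the narrower at all 6, with a median ratio of HET to WT width of 0.426. Over the 778 protein-coding genes with both, HET sites were narrower at 641 and the median ratio was 0.596. Whether the width difference at the members exceeds the spread between libraries could not be tested.

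The adult sites lay mostly inside the E18.5 sites of the same gene. Of 14 adult HET target members 12 were also E18.5 targets (85.7%, against 57.3% of all HET target genes), and of 22 adult WT target members 20 were (90.9%, against 69.6%). At those genes 10 of 12 HET sites (83.3%) and 19 of 21 WT sites (90.5%) lay wholly within an E18.5 site, compared with 70.9% and 79.2% over all protein-coding genes. The summed adult WT width was less than that of E18.5 at all 20 shared members (median ratio 0.295) and the HET width at all 12 (0.212). For all protein-coding genes the ratios were 0.341 and 0.2. Adult sites were thus narrower than E18.5 sites at the members and at genes in general.

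P0 and E18.5 held the same members to a large part. Of 60 E18.5 members 55 were also P0 targets (91.7%, the same share as over all protein-coding genes), and of 67 P0 members 55 were E18.5 targets (82.1%, against 61.3%). At 52 of these 55 the sites overlapped (94.5%, against 96.1% over all protein-coding genes with both). The P0 list more often held several sites at a gene, at 26 of 67 target members (38.8%) against 2 of 60 in E18.5 (3.33%), with 36.1% and 9.11% over all protein-coding target genes. At 8 of the 55 members 1 E18.5 site overlapped more than 1 P0 site. Over the 5456 protein-coding genes with both there were 697 such cases, so this was also seen in general.

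Site widths at members were set beside those at all protein-coding genes. The 62 E18.5 sites had a median width of 662.5 bp, against 630 bp for the sites at all protein-coding genes. Medians were 356 against 347 bp for the 97 P0 sites, 124.5 against 122 bp for the 14 adult HET sites and 256 against 211 bp for the 23 adult WT sites. The widest summed sites at E18.5 belonged to Rpl41, which encodes a very short basic protein (2055 bp in 2 sites), followed by Rpl3 (1239 bp), Rpl4 (1212 bp), Rpl37a (1201 bp) and Rpl10 (1152 bp). For Rpl41, 1207 bp of this was a site 462 bp from its nearest start that also lay within 1 kb of a start of Zc3h10, and its other site was 848 bp wide. Rpl41 also led at P0 (1499 bp, of which 692 bp was a site likewise within 1 kb of a Zc3h10 start), with Rpl7 (1245 bp), Rps24 (1080 bp) and Rpl28 (957 bp) also among the 5 widest. In adult HET the widest were Rps12 (246 bp), Rps19 (228 bp), Rps6 (165 bp), Rpl37 (138 bp) and Rpl13a (131 bp). In adult WT they included Rps19 (861 bp), Rps2 (414 bp), Rpl13a (372 bp) and Rpl31 (323 bp). Only Rps19 and Rpl13a were among the 5 widest in both adult lists.

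**Figure D3:**
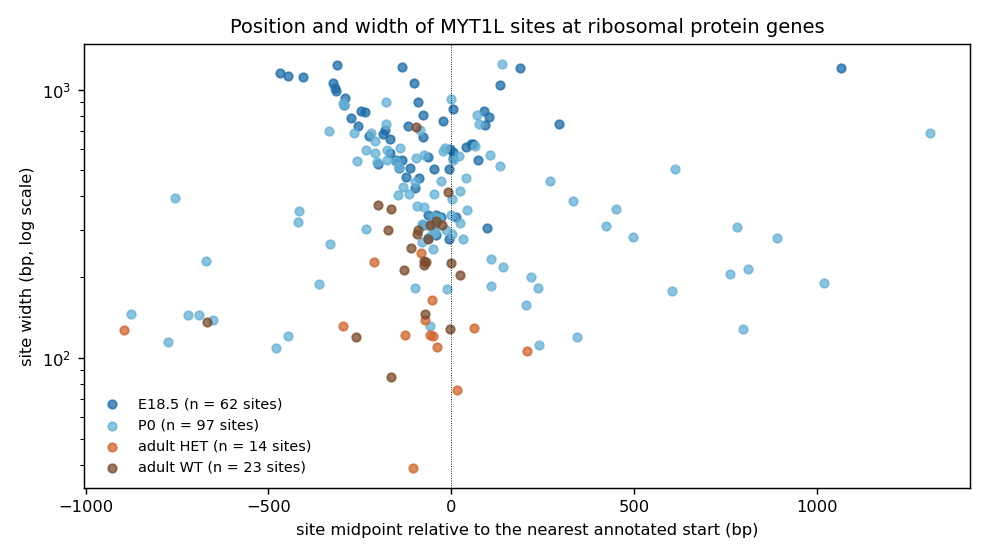
Width (bp, log scale) against midpoint position relative to the nearest annotated start (bp, negative upstream) for every MYT1L site at a member, coloured by list. The 62 E18.5 sites lie highest (median 662.5 bp) and the 14 adult HET sites lowest (median 124.5 bp), and the P0 sites spread farthest along the horizontal axis.

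The sites sat over the start with an upstream bias. All 60 E18.5 target members had a site that covered an annotated start (100%), against 84.7% of all E18.5 target genes. At P0 57 of 67 did (85.1%, against 73.4%), in adult HET 7 of 14 (50%, against 22.9%) and in adult WT 17 of 22 (77.3%, against 48.1%). With the RefSeq start alone the shares were 98.3% against 77.8% at E18.5, 86.6% against 66.9% at P0 and 59.1% against 39.6% in adult WT, but in adult HET they were 14.3% (2 of 14) against 18.4%, so the direction turned. The median midpoint lay 70 bp upstream of the reference start at E18.5, 24 bp at P0, 77 bp in adult HET and 75.5 bp in adult WT. Measured from the RefSeq start, which was available for all 76 members, the medians were 121, 71, 90 and 129.5 bp upstream, and 48 of 62 E18.5 sites, 65 of 97 P0 sites, 11 of 14 HET sites and all 23 WT sites had their midpoint upstream. Over all protein-coding genes the shares upstream were 68.6%, 56.7%, 58.3% and 66.6%.

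Around the RefSeq start, coverage of the members peaked just upstream in every list. At E18.5 it reached 60 members between 70 and 50 bp upstream, at P0 60 members at 90 bp, in adult HET 6 members between 100 and 30 bp, and in adult WT 19 members between 70 and 60 bp. Over all protein-coding genes with a RefSeq start the peaks also lay upstream, at 80 bp, between 60 and 50 bp, at 80 bp and at 70 bp. In the same order, the peaks covered 78.9%, 78.9%, 7.89% and 25% of members, against 22.5%, 29%, 2.62% and 6.13% of these genes. The flanks were unequal. At E18.5 25 members (32.9%) were covered at 500 bp upstream and 3 (3.95%) at 500 bp downstream, and at P0 16 (21.1%) and 6 (7.89%). Over all these genes the shares were 10.5% and 4.8% at E18.5 and 9.45% and 6.93% at P0, so this direction was general.

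**Figure D4:**
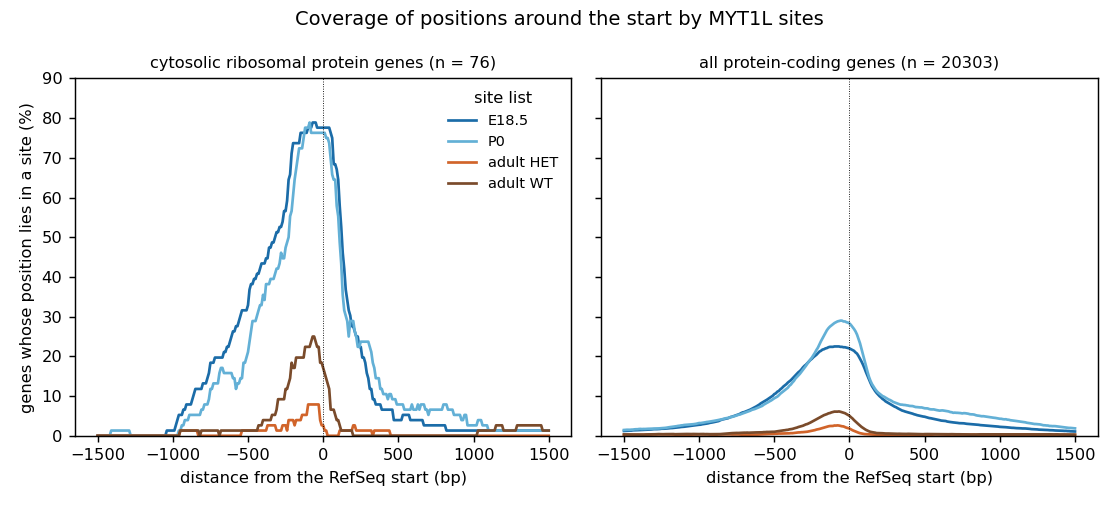
Share of genes (%) for which the position at a given distance from the RefSeq start (bp, negative upstream) lay in a MYT1L site, in steps of 10 bp, for the 76 members (left) and for 20303 protein-coding genes with a RefSeq start (right), with a line for each list. The members' E18.5 and P0 curves peak at 78.9% and fall off more slowly upstream than downstream. The curves for all protein-coding genes peak at 22.5% and 29%, and at 500 bp they are also higher upstream than downstream.

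For a few members the P0 site was away from the reference start. The 5 largest gaps were 26948 bp at Rps14, 1783 bp at Rps2, 1518 bp at Rpl17, 862 bp at Rpl13a and 704 bp at Rpl3. For Rps14, Rps2 and Rpl17 a P0 site covered the RefSeq start, so the gap came from the choice of start. For Rpl13a and Rpl3 the gap to the RefSeq start was 819 and 515 bp. At Rpl3 the 4 P0 sites lay around several annotated starts and none covered one, while its E18.5 site of 1239 bp covered the RefSeq start. The Rpl3 P0 sites 190 and 214 bp wide also lay within 1 kb of a start of Syngr1. The wider of them gave the 704 bp gap, so it cannot be given to Rpl3 alone.

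The 1 kb limit left few members just outside at E18.5 and P0, where the nearest site lay 1 to 5 kb away at 2 and 3 members. In adult HET and adult WT these were 5 and 6 members, which is more beside the 14 and 22 targets. At E18.5 the nearest site of every target touched a start, and the closest site of any other member was 3720 bp from a start, at Rpl8. At P0 the members on either side of the limit were Rpl13a (803 bp) and Rps26 (2043 bp), in adult HET Rpl19 (831 bp) and Rpl30 (1336 bp), and in adult WT the member just inside was Rpl35 (200 bp). Sites of 16 members also lay within 1 kb of a start of another protein-coding gene and cannot be assigned to the member alone. This was so for 14 of the 60 E18.5 targets, 14 of the 67 P0 targets, 1 of the 14 HET targets (Rps27a) and 4 of the 22 WT targets. Examples are Rpl4 with Zwilch, Rps18 with Vps52 and Rpl18 with Sphk2. For Rps10 the other gene was RPS10-NUDT3, whose own symbol includes Rps10. No share over all target genes stands beside these counts, so they describe the members only.

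Both subunits were represented in each list. At E18.5 targets were 23 of 30 genes of the 40S subunit (76.7%) and 34 of 43 of the 60S subunit (79.1%). At P0 they were 24 (80%) and 40 (93%), in adult HET 8 (26.7%) and 4 (9.3%), and in adult WT 11 (36.7%) and 11 (25.6%). Over all protein-coding genes the shares were 27.1%, 40.6%, 9.83% and 12.4%. In adult HET the 60S share was thus near that of all genes, and the 40S share was above it. The 3 stalk genes all had sites at E18.5 and P0. Rplp1 and Rplp2, which recruit translation factors, also had one in adult HET, and none of the 3 had one in adult WT. Of the 76 members 29 carry a small nucleolar RNA gene, usually within an intron. At 3 members (Rpl23, Rpl23a and Rps16) a site overlapped it. No share over all protein-coding genes stands beside these counts, so they describe the members only.

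Promoter CpG content was high among the members. By a window of 500 bases on each side of the reference start, 64 of 76 were CpG-rich, defined as a ratio of observed to expected CpG above 0.6 with more than 50% G and C. In the E18.5 list 50 of these 64 were targets (78.1%), against 47.5% of the 9822 CpG-rich protein-coding genes. At P0 the shares were 90.6% against 67.5%, in adult HET 21.9% against 13% and in adult WT 25% against 18.8%. The members' share was thus the higher within the CpG-rich class too. The gap in percentage points was smaller than over all genes at E18.5, P0 and in adult WT, but not in adult HET. Of the 12 members below these limits 10 were targets at E18.5 (83.3%, against 10.6% of all CpG-poor protein-coding genes), 9 at P0 (75%, against 18.7%), 0 in adult HET (against 7.29%) and 6 in adult WT (50%, against 7.12%). These 12 include Rps14, Rps2, Rpl17, Rpl18 and Rps10, whose reference start lay over 1 kb from the RefSeq start, so their class describes a position away from it.

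Other genes of protein synthesis were set beside the members. Among 34 genes for ribosome assembly and rRNA synthesis, 70.6% were targets at E18.5, 91.2% at P0, 8.82% in adult HET and 26.5% in adult WT. Among 46 translation factors the shares were 60.9%, 84.8%, 15.2% and 23.9%. The 78 mitochondrial ribosomal protein genes, whose products translate the mitochondrial genome, gave 52.6%, 79.5%, 10.3% and 14.1%. The cytosolic members had the highest share of these 4 gene lists except at P0, where ribosome assembly genes were higher. Of 9 ribosomal protein genes outside the symbol rule, 6 had a site at E18.5 and 6 at P0 (66.7% in each), and 3 had none at either. Among the 6, Rps3a1, Fau, Rpl7l1, Rpl22l1 and Rps27l had sites at both E18.5 and P0. In adult WT 1 of the 9 (Rpl7l1, 11.1%) had a site, and in adult HET none had. At 291 loci named as pseudogenes of the members, which are mostly retrotransposed copies without the parent promoter, a site lay within 1 kb of the start at 2 (0.687%) at E18.5, 2 at P0, 7 (2.41%) in adult HET and 3 (1.03%) in adult WT.

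**Figure D5:**
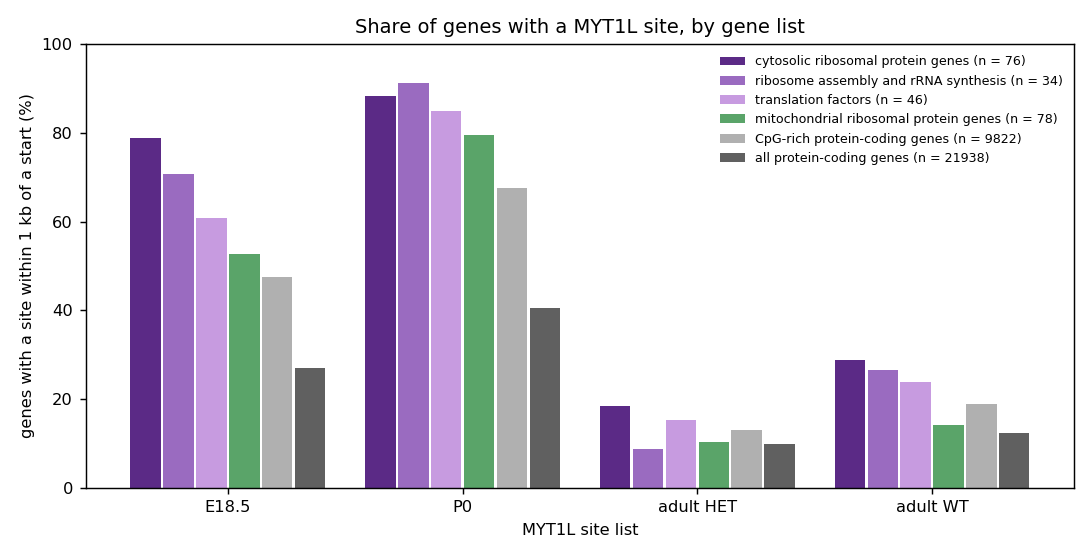
Share of genes (%) with a MYT1L site within 1 kb of a start in each list, with a bar for each of 6 gene lists and the number of genes in the legend. The bar of the 76 cytosolic ribosomal protein genes is the tallest at E18.5 (78.9%), in adult HET (18.4%) and in adult WT (28.9%), and stands below that of ribosome assembly genes at P0 (88.2% against 91.2%).

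Short motifs were counted in the members' sites on both strands. AAAGTT is the core of the motif that the study's methods give for MYT1L. CGGAAG is bound by factors of the ETS family. AAGATGG is the core of YY1 sites, and its first letters can overlap the end of an ETS core. GGGCGG is the GC box bound by Sp1, whose end can overlap the start of an ETS core. TGACGT is bound by CREB and ATF factors, and TATAAA is the TATA box. AAAGTT occurred in 20 of 62 E18.5 sites, 19 of 97 P0 sites, 0 of 14 adult HET sites and 2 of 23 adult WT sites. Wider sites hold more letters, so the counts were also set against length. There were 0.606 AAAGTT per kb in members' E18.5 sites, against 0.752 in sites at all protein-coding genes, and 0.58 against 0.788 at P0, 0 against 0.607 in adult HET and 0.324 against 0.567 in adult WT. The adult member sites covered 1.86 kb in HET and 6.18 kb in WT, so these values rest on few bases.

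CGGAAG was denser in the members' sites than in the others in each list. It occurred 2.07 times per kb against 1.05 at E18.5, 2.4 against 1.05 at P0, 5.38 against 0.859 in adult HET and 4.37 against 1.14 in adult WT, with 10 matches behind the HET value and 27 behind the WT value. It was present in 43 of 62 E18.5 sites, 55 of 97 P0 sites, 7 of 14 HET sites and 14 of 23 WT sites. AAGATGG occurred 0.512 times per kb against 0.271 at E18.5 0.379 against 0.258 at P0, 0 against 0.255 in adult HET and 0.485 against 0.279 in adult WT, where 3 matches lie behind the member value. GGGCGG was less dense than at other genes at E18.5 (2.1 against 2.85 per kb) and P0 (2.12 against 2.81), but not in adult HET (3.23 against 2.77) or adult WT (3.72 against 3.61).

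The same letters were counted in the promoter windows, irrespective of sites. Around the reference start CGGAAG was found in 42 of 76 member promoters (55.3%), against 20.1% of all protein-coding promoters and 33.2% of CpG-rich ones, and around the RefSeq start in 50 (65.8%, against 21.9% of all). The mitochondrial ribosomal protein genes were similar, with 53.8% around the reference start. AAAGTT was found in 8 member promoters (10.5%), against 13.8% of all and 9.48% of CpG-rich ones. AAGATGG was found in 11 (14.5%, against 6.38%), GGGCGG in 34 (44.7%, against 43.9%), TGACGT in 12 (15.8%, against 8.65%) and TATAAA in 8 (10.5%, against 12.6%). In the same order, the shares of CpG-rich promoters were 7.33%, 72.7%, 13.1% and 5.71%. Set against CpG-rich promoters, the members' share was thus lower for the GC box. It was higher for the ETS core, the YY1 core and the TATA box. The MYT1L core (10.5% against 9.48%) and the CREB and ATF motif (15.8% against 13.1%) had shares near those of CpG-rich promoters. A C followed by at least 4 more pyrimidines, beginning within 5 bases of the start as in TOP mRNAs, was found at the reference start of 21 members (27.6%, against 18.3% of all) and at the RefSeq start of 32 (42.1%, against 18.9%).

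Members with and without these letters in the RefSeq promoter were both among the targets. All 8 members with AAAGTT there were targets at E18.5 and at P0, as were 52 and 59 of the 68 without it. In adult HET none of the 8 and 14 of the 68 were targets, and in adult WT 2 and 20. Of the 50 members with CGGAAG 39 were targets at E18.5, 45 at P0, 9 in adult HET and 15 in adult WT, and of the 26 without it 21, 22, 5 and 7. Of the 32 with a pyrimidine run at the start 28 were targets at E18.5 and at P0, 7 in adult HET and 10 in adult WT, and of the 44 without it 32, 39, 7 and 12. A match of these letters is a description of the sequence and not a site of the named factor.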

How the data were processed

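CUT&RUN libraries were made from dissociated cortical cells with the MYT1L antibody or control IgG. The study's methods name nf-core/cutandrun as the pipeline, and the submitters' processing notes name the mm10 build. How reads were aligned, how sites were called and whether IgG was used is not given in the sources used. The authors deposited 4 lists of positions (first and last base of a site), each merged over 3 libraries, with no counts or scores. Positions in the text count from 1. Merging joins sites of different libraries, so a width can exceed that in any 1 library. Where adult titles named Myt2l or Myt3l, the description label set the group. Genes, starts and sequence were from GENCODE vM21 and RefSeq on GRCm38.p6, the assembly of mm10, without the mitochondrial chromosome. The reference start of a gene was the start used by most of its transcripts, with ties to the most upstream, and the RefSeq start the same over curated mRNAs. Overlap needed at least 1 bp. RefSeq promoter sequences were matched by symbol and chromosome for 56 of 76 members. Python 3.11.15, numpy 2.4.6, scipy 1.17.1 and matplotlib 3.10.9 were used, and site assignment was tested on simulated sites.

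Members and lists were chosen with earlier results of these data known. Genes named were those with sites in all lists or in none, those in 1 adult list only, the 5 widest in each list, the 5 farthest from the reference start at P0 and those nearest the 1 kb limit. Others were named as examples of a pattern. A few genes that the rule would name are not reported here. With 1 list for each group no test was made. The alternatives tried were limits of 500 bp and 5 kb, the site midpoint, wider sites only, 1 start for each gene and removal of shared promoters.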

Additional observations from a re-analysis of the deposited data

How the results depend on the processing

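The counts of target members stayed within 1.5 times of the values reported under limits of 500 bp and 5 kb, with site midpoints, with the reference start only, and without members that share a site with another gene. They ranged over these from 46 to 62 at E18.5, 53 to 70 at P0, 13 to 19 in adult HET and 18 to 28 in adult WT. With only the sites wider than the median of their list, the E18.5 count was 35 in place of 60, since this setting leaves out the narrower sites by construction, and the others were 60, 11 and 18. The number of members with sites in all 4 lists was 4 at 500 bp, 5 at 5 kb and 3 where the sites of the 4 lists had to share bases. AAAGTT within 75 bp of a site midpoint, rather than anywhere in the site, was found at 5 members at E18.5, 10 at P0, 0 in adult HET and 2 in adult WT. As shares of sites these were 8.06%, 10.3%, 0% and 8.7%, against 9.56%, 10.6%, 9.33% and 8.13% at all protein-coding genes. The members' share was thus near that of all genes except in adult HET, which had 14 member sites. The RefSeq start was added as an alternative after the data were seen: with it, 2 rather than 4 HET members had a site over the start, a share below that of all HET target genes. No paired analysis was possible because each group was deposited as 1 merged list, and for the same reason no library could be left out. Depth is unknown, so a member absent from a list is one for which no site was called, and the difference between the younger and adult lists cannot be told apart from a difference between sequencing runs.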
